A study of Mus musculus with 13 samples.

Results

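The withdrawal of the protein kinase D (PKD) inhibitor from a hepatocyte culture cocktail was compared directly with the withdrawal of the AMPK activator, across all genes. Damaged hepatocytes (dHeps) had been isolated from wild-type mice with liver injury caused by carbon tetrachloride (CCl4) and cultured until day 16 in serum-free Hepatocyte Maintenance Medium. The complete cocktail is called 5C. Cultures of both groups received GSK429286A, which inhibits ROCK, forskolin, which activates adenylate cyclase, and the plant glycoside Salidroside. The group 5C-C received ETC-1002 (an activator of AMPK) in addition and lacked CID755673 (an inhibitor of PKD), and the group 5C-E received CID755673 and lacked ETC-1002, so each lacked 1 compound that the other had. The members of the comparison were the 4 libraries whose count columns carry these group names, 2 for 5C-C and 2 for 5C-E, of 13 libraries in 7 groups. Libraries of the solvent control (DMSO) and of the complete cocktail, 2 each, are given beside them. Libraries are named by the numbers of their columns, and nothing in the labels pairs these numbers across groups. The labels do not say whether the libraries of a group came from separate cultures, so the p-values measure only the spread between these samples.

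PKD is a family of serine/threonine kinases (Prkd1, Prkd2 and Prkd3) that act downstream of diacylglycerol and protein kinase C, and it phosphorylates class IIa histone deacetylases, which then leave the nucleus and release MEF2 transcription factors. AMPK senses a low cellular energy charge and restrains lipid and sterol synthesis. ETC-1002 is bempedoic acid, which the acyl-CoA synthetase Slc27a2 converts to its CoA form in hepatocytes, where that form inhibits ATP citrate lyase (Acly), the enzyme that supplies cytosolic acetyl-CoA for fatty acid and cholesterol synthesis. The comparison therefore asks which transcripts differ when dHeps lack the kinase inhibitor rather than the metabolic compound on an otherwise equal background.

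Higher in 5C-C than in 5C-E were 14 of 40 genes of mitosis, 10 of 40 genes of DNA replication and 15 of 35 nuclear genes of the respiratory chain, together with single genes of secreted proteins (Ccl8, Saa3, Reg3b, Slpi) and the metalloproteinase inhibitor Timp1. Lower in 5C-C were single genes of cell adhesion and matrix (Vcl, Mylk, Col8a1, Thbs1, Timp3), and with them the sterol enzyme Idi1 and the transferase Ugt1a1, while 3 of the 21 conjugating enzymes were higher. Total counts were 30195867 and 45491932 in 5C-C and 36360797 and 32595945 in 5C-E. In edgeR's quasi-likelihood test with Benjamini-Hochberg adjustment, 2718 of 19884 genes (13.7%) were called at an adjusted p under 0.05 and a log2 fold change beyond 1. The calls comprised 1258 genes with more RNA in 5C-C (6.33% of those tested) and 1460 with less (7.34%). Log2 fold changes are given as 5C-C against 5C-E with their standard error (SE). Without library 5C-C2 the total fell to 1561, of which 37.0% were higher in 5C-C, against 46.3% with all libraries. When libraries were scaled by total counts alone, the median log2 fold change over all genes was -0.23 and the split was 620 higher and 2404 lower.

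The difference followed transcript length. Called genes that were higher in 5C-C had a median length of 2123 bases for their longest annotated transcript, against 6622.5 bases for those lower and 3586 bases over all genes tested. In the class of shortest transcripts among 5 equal classes, 12.2% were called higher and 1.19% lower in 5C-C, and in the class of longest transcripts 1.11% were higher and 22.4% lower. Across genes, the Spearman correlation of a library's deviation from the mean of all libraries with transcript length was -0.18 and -0.31 in 5C-C1 and 5C-C2, and 0.23 and 0.22 in 5C-E1 and 5C-E2. It was 0.19 and 0.18 in the 5C libraries and 0.25 and 0.23 in the DMSO libraries. By length, the 5C-E libraries lay near both and the 5C-C libraries apart from them. The libraries without GSK429286A (5C-G) were at -0.054 and -0.21 and those without forskolin (5C-F) at 0.026 and -0.13. Library 5C-S1, without Salidroside, was at -0.018. The same correlation with GC content was 0.26 and 0.32 in 5C-C and -0.18 and 0.11 in 5C-E, so the 5C-E libraries differed in sign. It was -0.36 and -0.31 in 5C and -0.16 and -0.17 in DMSO. These are descriptions across genes, which are not independent replicates. The part of RNA quality or library preparation in these trends was not tested, and the labels name no batch. A further edgeR fit, whose offset takes up GC content and transcript length in each library, called 693 genes higher and 647 lower. The genes called in the same direction without and with this offset numbered 420 higher (2.11% of the genes tested) and 519 lower (2.61%), which is 34.5% of all calls. Both fits are given for the genes below, and "with the offset" always refers to this fit.

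**Figure D1:**
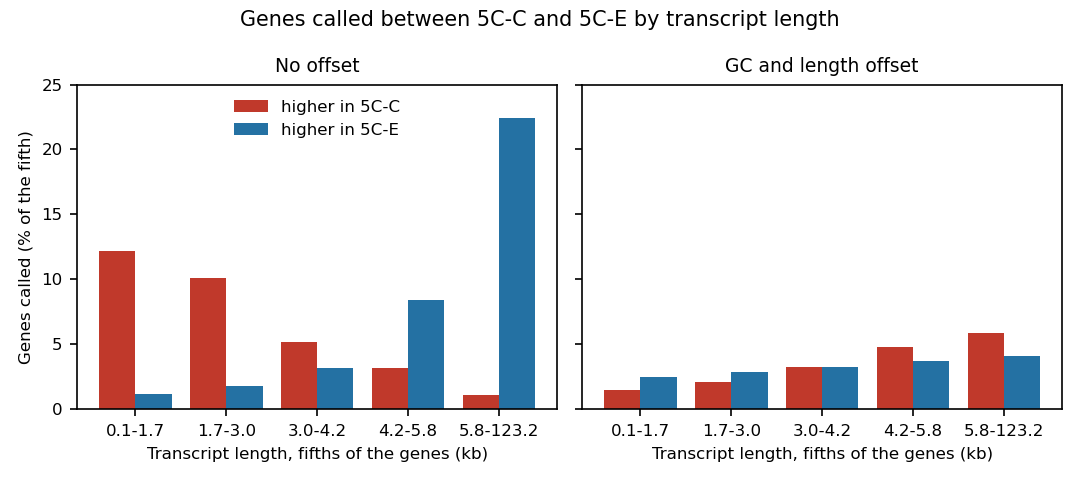
Share of genes called higher in 5C-C (red) or higher in 5C-E (blue), in percent of the genes in each of 5 equal classes of transcript length (kb), without the offset (left) and with it (right). Without the offset the shortest class holds 12.2% of genes higher in 5C-C and the longest class 22.4% of genes higher in 5C-E, and with it these shares are 1.44% and 4.09%.

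The cultures were checked against markers of hepatocytes and of other liver cells. Levels are given as FPKM, fragments scaled to gene length and library size, as deposited. The summed FPKM of 11 hepatocyte markers was 10788 and 9430 in 5C-C and 7124 and 6258 in 5C-E, against 16072 and 16061 in 5C, and no hepatocyte marker was at 0 in any of these libraries. Alb, which encodes serum albumin, had 3433 and 2553 FPKM in 5C-C and 2719 and 2122 FPKM in 5C-E. The log2 fold change was 0.54 ± 0.19 (SE; adjusted p = 0.0416), which is not a call, the FPKM of the groups overlapped, and both removal groups lay under 5C with 9437 and 9425 FPKM. Hnf4a, a nuclear receptor that controls hepatocyte identity, did not separate the groups, with 17.4 and 13.4 FPKM in 5C-C and 16.7 and 17.3 FPKM in 5C-E. Its log2 fold change of 0.09 ± 0.17 (adjusted p = 0.755) turned negative under total counts.

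Markers of other cell types were summed in the same way. The sum of 19 macrophage markers was 1542 and 2298 FPKM in 5C-C, 1076 and 1210 in 5C-E, and 843 and 938 in 5C. In DMSO the sum was 6622.5 and 6716.7 FPKM. Of these markers 5 (26.3%) were called higher and 1 (5.26%) lower in 5C-C, against 6.33% and 7.34% over all genes, with a median log2 fold change of 0.94 (0.33 with the offset), and the count of higher markers was 2 without library 5C-C2, 3 without 5C-E1 and 10 without 5C-C1. The complement genes C1qa and C1qb were among those higher, each without a call when 5C-C2 or 5C-E1 was left out, whereas Adgre1, which encodes the macrophage antigen F4/80, had 10.1 and 8.25 FPKM in 5C-C and 14.5 and 14.4 FPKM in 5C-E. Clec4f, a Kupffer cell marker, stayed at or under 0.187 FPKM in the 4 libraries. The marker called lower was Ptprc, the pan-leukocyte antigen CD45, at -1.05 ± 0.22 (-0.48 with the offset), and Adgre1 was at -0.43 ± 0.16 without a call. In all, 15 of the 19 log2 fold changes were positive, and 1 of the 5 markers called higher was also called with the offset, against 2.11% over all genes.

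The sum of 19 stellate cell and fibroblast markers was 1626 and 1404 FPKM in 5C-C and 1698 and 1851 FPKM in 5C-E, with 0 called higher and 4 (21.1%) lower in 5C-C, against 7.34% lower over all genes. Reln, Rgs5 and Col1a2 were lower without and with the offset, and Col1a1 and Col3a1 were not called, at log2 fold changes of 0.09 and 0.03. Mesothelial markers summed to 949 and 869 FPKM in 5C-C and to 958 and 859 FPKM in 5C-E, so the sums overlapped. Of the 9 mesothelial markers, 3 (33.3%) were called lower (Wt1, Bnc1 and Lrrn4) and 1 (11.1%) higher (Krt19, also a cholangiocyte marker). The shares over all genes were 7.34% and 6.33%. Positive log2 fold changes were found for 4 of the 9. The median of -0.91 came to -0.41 with the offset, with which Wt1 and Bnc1 alone kept their calls. The count of lower markers was 1 without 5C-C2, 2 without 5C-E1 and 5 without 5C-C1. The transcription factor Wt1 had 24.1 and 15.5 FPKM in 5C-C against 52.0 and 52.7 FPKM in 5C-E, and Bnc1 15.8 and 16.5 against 47.7 and 41.3 FPKM. Without 5C-C2, Wt1 fell short of the threshold at -0.91. The sum of 14 cholangiocyte and progenitor markers did not overlap between the groups, with 2218 and 1931 FPKM in 5C-C and 1565 and 1664 FPKM in 5C-E, against 2038 and 1682 FPKM in 5C. Of these, Krt19 and Krt23, keratins of biliary epithelium, were called higher (14.3%, against 6.33% over all genes) and 0 lower. The median was 0.67 (0.30 with the offset), and only Krt23 was also called with the offset, against 2.11% over all genes. Krt23 did not keep its call without 5C-C2 (1.31) or without 5C-E1 (0.85). Endothelial markers (64.7 and 66.9 against 72.3 and 78.3 FPKM) and lymphocyte and neutrophil markers (at most 4.52 FPKM) were low in all 4 libraries. In bulk RNA, fewer cells of a type and less RNA per cell cannot be told apart, and the part of cell composition in the results below was not tested.

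The mitosis list, which had the highest median of 33 gene lists with the offset, held 40 genes of spindle assembly, chromosome segregation and cytokinesis, all of which were tested. In 5C-C 14 of them were called higher and 0 lower, and 10 of the 14 were also called with the offset, against 6.33% and 2.11% over all genes. The median log2 fold change was 0.77, and 0.90 with the offset, where the median of all genes was 0.00 and -0.02. Positive log2 fold changes were found for 35 of the 40 genes. The count fell without library 5C-C2 and without 5C-E1. It was 10 under total counts, 10 in the limma fit of log2(FPKM + 0.1) and 5 in that of log2(FPKM + 1). The causes of these shifts were not tested.

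Many of these genes are known to carry a cell cycle homology region (CHR), the letters TTTGAA, near their start site, which is bound by the DREAM and B-Myb complexes and is often accompanied by CCAAT boxes. RefSeq promoter windows (build GRCm38.p6, from 250 bases before to 50 bases after the start site) were at hand for 34 of the 40 genes. TTTGAA was present on either strand in 26 of the 34 (76.5%), against 20.2% of the 27025 genes in the promoter table and 15.3% of the 13107 genes tested here that have a window, and CCAAT in 26 (76.5%) against 41.1% and 41.9%. The letters did not set the called genes apart, since TTTGAA was found in 9 of 12 called genes (75.0%) and in 17 of 22 genes that were tested and not called (77.3%). For comparison, 6 of 33 DNA replication genes with a window (18.2%) held TTTGAA, while 14 of the 33 (42.4%) held the E2F-type letters TTCCCGC, which occur in 5.29% of all genes in the table, in 8.80% of those tested and in 0 of the 34 mitosis genes. Each of these 3 motifs was searched on both strands and counted on its own, whether or not it overlapped a match of another. The 120 bases before the start site are shown for 4 of the 9 called genes with TTTGAA, those that hold it in that stretch. They differ in its place and in the number of CCAAT matches beside it (0 in Kif2c, 2 in each of the others). TTTGAA and CCAAT, or their reverse complements TTCAAA and ATTGG, are in capitals.

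Cdk1, chr10:69352913-69353032, minus strand: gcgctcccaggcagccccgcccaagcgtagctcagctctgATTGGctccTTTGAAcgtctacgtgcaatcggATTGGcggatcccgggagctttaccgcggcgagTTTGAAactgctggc
Cdc20, chr4:118437344-118437463, minus strand: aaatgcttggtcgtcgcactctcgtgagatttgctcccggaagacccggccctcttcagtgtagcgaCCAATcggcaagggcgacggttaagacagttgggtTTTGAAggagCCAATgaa
Ube2c, chr2:164769809-164769928, plus strand: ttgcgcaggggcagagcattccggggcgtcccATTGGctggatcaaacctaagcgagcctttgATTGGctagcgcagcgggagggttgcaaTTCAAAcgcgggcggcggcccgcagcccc
Kif2c, chr4:117178773-117178892, minus strand: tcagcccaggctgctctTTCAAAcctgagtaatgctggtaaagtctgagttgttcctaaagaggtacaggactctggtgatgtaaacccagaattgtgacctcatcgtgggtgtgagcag

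These matches describe the letters of the reference and do not show that a factor was bound. Cdk1, the kinase that drives entry into mitosis, had 10.3 and 14.9 FPKM in 5C-C, 6.64 and 7.37 FPKM in 5C-E, and 5.62 and 4.64 FPKM in 5C. Its log2 fold change was 1.09 ± 0.21 (adjusted p = 0.00123, and 1.26 with the offset). Ube2c, an E2 enzyme of the anaphase-promoting complex, had 12.6 and 22.2 FPKM in 5C-C and 6.07 and 8.55 FPKM in 5C-E, and Cdc20, an activator of that complex, 13.5 and 17.8 against 6.72 and 8.67 FPKM. Both were called without the offset, at 1.496 and 1.26, and fell short of a log2 fold change of 1 with it, at 0.91 and 0.62.

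Among the called mitosis genes were Birc5, Aurkb and Cdca8, which encode subunits of the chromosomal passenger complex, a corrector of the attachment of chromosomes to the spindle. They were grouped after their values were seen, and the remaining core subunit Incenp was not called, at 0.68 ± 0.29 (adjusted p = 0.0886, and 1.08 with the offset). Birc5 (survivin; GRCm39 chromosome 11, 117740040 to 117746581, plus strand, protein coding) had 4.86 and 7.61 FPKM in 5C-C, 1.94 and 2.04 FPKM in 5C-E, 1.02 and 0.919 FPKM in 5C and 0.996 and 1.01 FPKM in DMSO. The libraries of 5C-C lay above those of 5C-E, 5C and DMSO, with a log2 fold change of 1.89 ± 0.34 against 5C-E (adjusted p = 9.2e-04, and 1.80 with the offset). The kinase Aurkb followed at 1.62 ± 0.30 (adjusted p = 0.0011, and 1.09 with the offset) and the borealin gene Cdca8 at 1.65 ± 0.34 (adjusted p = 0.00219, and 1.55 with the offset). Cdca3, a trigger of mitotic entry, had 9.92 and 13.2 FPKM in 5C-C, 3.58 and 4.58 FPKM in 5C-E and 1.19 and 1.23 FPKM in 5C. Cenpa, the centromeric histone H3 variant, and Cenpm, a further centromere protein gene, gave 1.56 ± 0.34 (2.31 with the offset) and 2.20 ± 0.32 (1.45 with the offset). Birc5, Cdca3 and Cdca8 kept their calls with each of the 4 libraries left out in turn.

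The proliferation marker Mki67 had 3.23 and 3.41 FPKM in 5C-C and 2.64 and 2.41 FPKM in 5C-E. At 0.63 ± 0.23 it was not called (adjusted p = 0.05), but with the offset it reached 1.41 (adjusted p = 9.0e-04). Mybl2, which encodes B-Myb, had 1.02 and 1.42 FPKM in 5C-C and 0.249 and 0.555 FPKM in 5C-E. Its call (1.84 ± 0.52, adjusted p = 0.0144) was lost without 5C-C2 (adjusted p = 0.11) and without 5C-E1 (adjusted p = 0.17).

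Of 40 DNA replication genes, 10 (25%) passed as higher in 5C-C and 0 as lower, and 7 were also called with the offset, against 6.33% and 2.11% over all genes. The median log2 fold change was 0.74 (0.48 with the offset), and the count was 5 without 5C-C2, without 5C-E1 and under total counts, where 1 gene was called lower, and 2 in the limma fit of log2(FPKM + 1). Tk1, the thymidine kinase of S phase, had 4.62 and 9.52 FPKM in 5C-C, 1.94 and 2.42 FPKM in 5C-E and 1.13 and 0.983 FPKM in 5C, a log2 fold change of 1.95 ± 0.31 between the removals (adjusted p = 5.2e-04, and 1.498 with the offset). Chaf1b, a subunit of the histone chaperone CAF-1, had 6.07 and 9.06 FPKM in 5C-C against 2.51 and 2.36 FPKM in 5C-E (1.88 ± 0.26, adjusted p = 3.0e-04, and 1.61 with the offset). The thymidylate synthase Tyms and the helicase subunit Mcm5 were called at 1.33 and 1.29, and Pcna, the sliding clamp, was not called at 0.44 ± 0.17. The cyclin-dependent kinase inhibitor Cdkn1a, a member of the list of cell cycle inhibitors and p53 targets that was singled out after its values were seen, had 44.2 and 38.0 FPKM in 5C-C and 40.9 and 51.0 FPKM in 5C-E, so the groups overlapped. Of that list of 24 genes, 2 were called higher (Gadd45a and Bax) and 2 lower (Eda2r and Trp53inp1), and 0 of these with the offset. Each direction held 8.33% of the list, near the 6.33% higher and 7.34% lower over all genes. Without 5C-C2, 0 were called higher and 1 lower, without 5C-E1 1 and 1, and without 5C-E2 4 and 2.

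The 2 removals were chosen for having lower hepatic and higher cell cycle genes than 5C, so the following counts describe that choice and test nothing. Against the complete cocktail, mitosis genes called higher numbered 35 of 40 in 5C-C and 13 of 40 in 5C-E, and of the DNA replication genes 20 were called higher in 5C-C and 1 in 5C-E. The background over all genes was 9.65% called higher and 10.5% lower in 5C-C, and 0.654% higher and 1.31% lower in 5C-E. Both comparisons share the 5C libraries, so their counts stand side by side only, and the test of the difference is the direct contrast above.

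**Figure D2:**
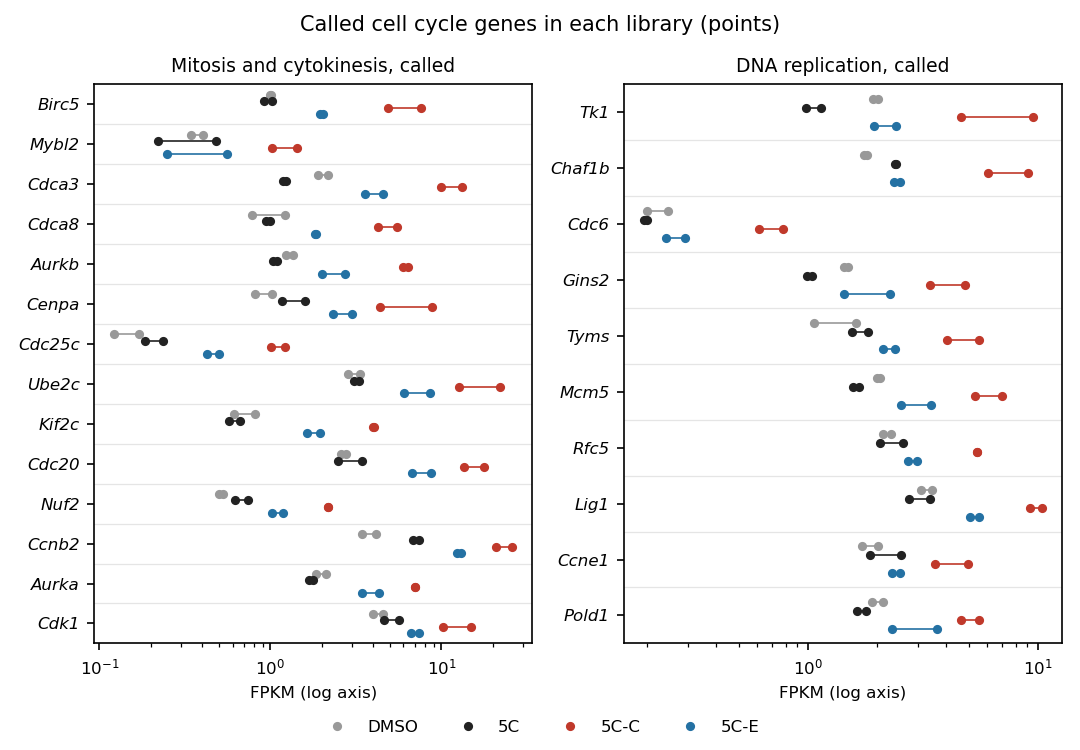
FPKM (log axis) of the 14 called mitosis genes (left) and the 10 called DNA replication genes (right), each point a library and each line joining the 2 libraries of a group, in DMSO (grey), 5C (black), 5C-C (red) and 5C-E (blue). The 5C-C libraries lie to the right of the 5C-E libraries for each gene shown, and Birc5 lies at 4.86 and 7.61 FPKM in 5C-C against 1.94 and 2.04 FPKM in 5C-E.

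The 12 leading genes higher in 5C-C, called without and with the offset at a mean of at least 10 FPKM in the higher group, are described first. Ccl8 (GRCm39 chromosome 11, 82006007 to 82007625, plus strand, protein coding), a chemokine for monocytes, had 11.3 and 27.1 FPKM in 5C-C, 1.93 and 2.76 FPKM in 5C-E and 0.933 and 1.78 FPKM in 5C. Its log2 fold change was 3.29 ± 0.41 (adjusted p = 2.1e-04, and 2.65 with the offset). DMSO cultures were higher still, with 42.4 and 42.8 FPKM. Saa3 (chromosome 7, 46361422 to 46365576, minus strand), an acute phase serum amyloid, had 125 and 358 FPKM in 5C-C, 29.8 and 32.4 FPKM in 5C-E and 13.2 and 21.1 FPKM in 5C, a log2 fold change of 3.21 ± 0.40 (adjusted p = 2.1e-04, and 2.96 with the offset). The 5C-C libraries differed from each other here by more than the 5C-E libraries did, without overlap between the groups.

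Slpi, which encodes a secreted inhibitor of leukocyte proteases, had 1675 and 2568 FPKM in 5C-C, 598 and 562 FPKM in 5C-E and 410 and 449 FPKM in 5C (2.11 ± 0.21, adjusted p = 7.4e-05, and 1.29 with the offset). Reg3b, a secreted C-type lectin, and Pglyrp1, a peptidoglycan recognition protein, were at 2.73 ± 0.62 and 2.26 ± 0.50. Both lost their calls without 5C-E1 (adjusted p = 0.065 and 0.061). Dmkn, an epithelial secreted protein, the neurotrophic factor Nrtn and the whey acidic protein family member Wfdc1 were also among the leading genes, at 2.69, 2.21 and 2.04. The pseudogenes Rpl36-ps12 and Rpl17-ps3 completed the group and are uncertain, because they share reads with the ribosomal protein genes they derive from. Ccl5, a chemokine for T cells, had counts of 28 and 32 in 5C-C and of 0 and 0 in 5C-E, which makes it at least 10.96-fold higher in 5C-C against a floor of 3 counts per library, and its call was lost without either 5C-E library. Of 40 cytokine, chemokine and NF-kB feedback genes tested, Ccl8 and Ccl5 were the only ones called, both higher (5%, against 6.33% over all genes), and the list median was 0.22 (0.02 with the offset).

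Timp1 (GRCm39 chromosome X, 20736316 to 20740976, plus strand, protein coding), the tissue inhibitor of matrix metalloproteinases that is induced in injured liver, was among the most abundant of these transcripts. It had 1836 and 2621 FPKM in 5C-C, 527 and 614 FPKM in 5C-E, 257 and 257 FPKM in 5C and 204 and 235 FPKM in DMSO. The log2 fold change was 2.21 ± 0.23 (adjusted p = 1.1e-04, and 1.67 with the offset). The lowest 5C-C library lay above the highest library of 5C-E, 5C and DMSO. Timp3, the family member that is bound to matrix, went the other way, with 27.9 and 11.1 FPKM in 5C-C, 107 and 99.9 FPKM in 5C-E and 64.1 and 61.4 FPKM in 5C (-2.18 ± 0.34, adjusted p = 5.0e-04, and -1.98 with the offset). In the list of 23 matrix proteases and inhibitors, Timp1 was the only gene called higher in 5C-C, and Timp3, Adamts1, Adamts4 and Adam12 were called lower (17.4%, against 7.34% over all genes), the first 3 also with the offset.

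**Figure D3:**
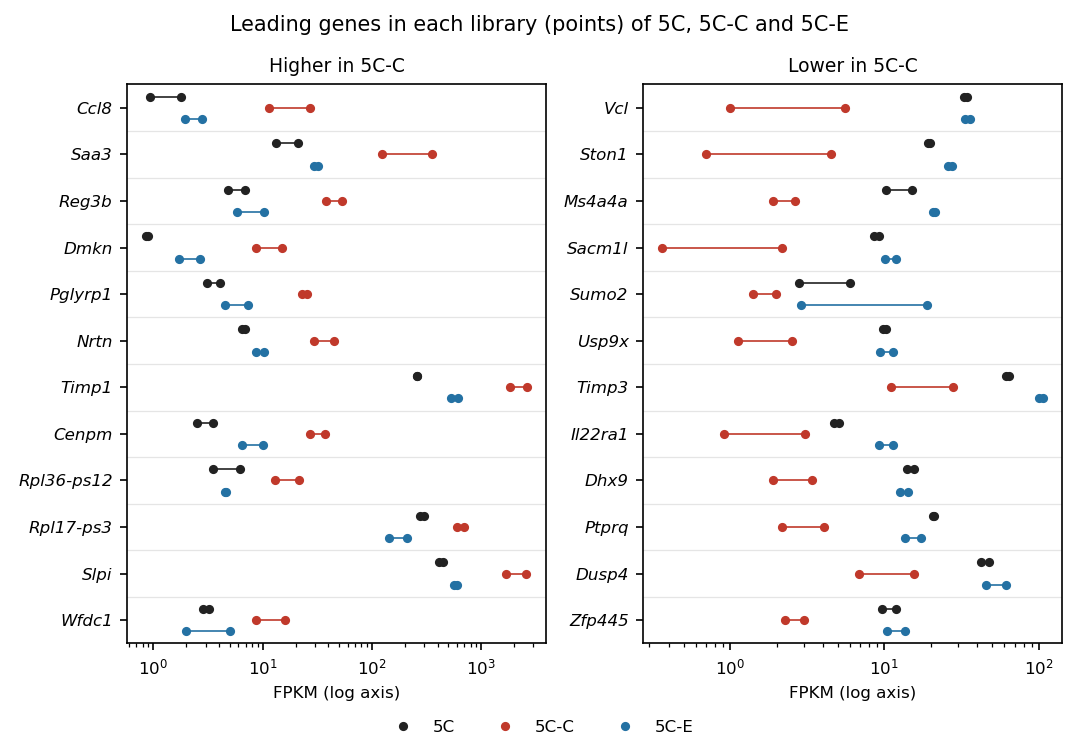
FPKM (log axis) of the 12 leading genes higher (left) and lower (right) in 5C-C that were called without and with the offset, each point a library and each line joining the 2 libraries of a group, in 5C (black), 5C-C (red) and 5C-E (blue). Red points lie to the right of blue points on the left panel and to the left of them on the right panel, for example Timp1 at 1836 and 2621 against 527 and 614 FPKM.

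Of the 12 leading genes lower in 5C-C, chosen in the same way at a mean of at least 10 FPKM in the higher group, Vcl had the greatest fold. Vcl, which encodes vinculin, a cytoskeletal linker of adhesion sites (GRCm39 chromosome 14, 20979449 to 21083758, plus strand, protein coding), had 5.59 and 1.00 FPKM in 5C-C, 35.7 and 33.5 FPKM in 5C-E, 32.8 and 34.1 FPKM in 5C and 47.2 and 40.3 FPKM in DMSO. The log2 fold change was -3.19 ± 0.53 (adjusted p = 6.4e-04, and -2.94 with the offset). The 5C-C libraries differed widely from each other, yet both lay well below each library of the other 3 groups. Mylk, the myosin light chain kinase of smooth muscle and other contractile cells, had 9.11 and 7.06 FPKM in 5C-C against 32.7 and 24.6 FPKM in 5C-E (-1.59 ± 0.19, adjusted p = 1.8e-04, and -1.21 with the offset).

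Contractile genes were also counted as a list. Acta2, smooth muscle actin, had 33.2 and 44.1 FPKM in 5C-C and 50.7 and 43.3 FPKM in 5C-E, so the groups overlapped (-0.04 ± 0.20, adjusted p = 0.919), and both removals lay under 5C with 233 and 215 FPKM. Of 22 smooth muscle and SRF contractile genes tested, 1 (4.55%) was called higher (Tpm2) and 3 (13.6%) lower (Vcl, Mylk and Mkl2), against 6.33% and 7.34% over all genes. The median was -0.14 (-0.20 with the offset). The count was 5 lower under total counts, and 0 higher without 5C-C2. Of 20 YAP and TEAD target genes tested, 5 (25%) were called lower and 0 higher, against 7.34% and 6.33% over all genes. Negative log2 fold changes were found for 19 of the 20, and the median was -0.50 (-0.48 with the offset). Only Amotl2, a feedback inhibitor of YAP, was also called with the offset, against 2.61% over all genes. It had 43.9 and 31.1 FPKM in 5C-C against 88.6 and 90.3 FPKM in 5C-E, and the list count was 2 without 5C-C2.

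The remaining leading genes lower in 5C-C had varied roles. Ms4a4a, a membrane protein of macrophages, had 2.65 and 1.89 FPKM in 5C-C, 20.7 and 21.2 FPKM in 5C-E and 94.0 and 91.6 FPKM in DMSO (-2.99 ± 0.60; -3.34 with the offset), opposite to the complement genes of macrophages above. Dusp4, a phosphatase of MAP kinases, had 15.5 and 6.85 FPKM in 5C-C against 45.3 and 61.2 FPKM in 5C-E (-2.03 ± 0.34, adjusted p = 6.1e-04, and -2.45 with the offset). Il22ra1, the receptor subunit for interleukin 22 on epithelial cells, was at -2.17 ± 0.46 (adjusted p = 0.00259, and -2.61 with the offset). Ston1, Sacm1l, Usp9x, Dhx9, Ptprq and Zfp445 lay between -3.15 and -1.97. Sumo2 was on the same list but rested on a single library, with 18.9 FPKM in 5C-E1 and 2.89 FPKM in 5C-E2, and its log2 fold change of -2.46 became -0.56 (adjusted p = 0.59) without 5C-E1.

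Of 29 matrix glycoprotein and cross-linking genes, Ecm1 was called higher in 5C-C (3.45%) and Thbs1, Fbn1 and Nid1 lower (10.3%), against 6.33% and 7.34% over all genes. Of these, Thbs1 alone was also called with the offset. The median was -0.32 (-0.03 with the offset). The count was 5 lower and 2 higher without 5C-C1 or without 5C-E1, 0 higher without 5C-C2, and 7 lower and 0 higher under total counts. Among 19 collagens, 4 (21.1%) were called lower in 5C-C and 0 higher, 3 of them with the offset, against 7.34% and 2.61% lower over all genes, and the median of -0.56 shrank to -0.16 with the offset. Col8a1, a short-chain collagen, had 1.03 and 1.00 FPKM in 5C-C, 9.39 and 8.37 FPKM in 5C-E and 20.3 and 21.1 FPKM in 5C (-2.89 ± 0.25, adjusted p = 2.6e-05, and -2.60 with the offset). These 3 groups were ordered without overlap. Col1a2 had 23.7 and 6.82 FPKM in 5C-C against 48.0 and 51.5 FPKM in 5C-E (-1.49 ± 0.36), and its value was -0.86 without 5C-C2, whereas Col1a1 had 779 and 647 FPKM in 5C-C and 706 and 870 FPKM in 5C-E.

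Thbs1, thrombospondin, a matrix glycoprotein that activates latent TGF beta, had 20.6 and 18.4 FPKM in 5C-C, 84.8 and 65.4 FPKM in 5C-E and 214 and 234 FPKM in 5C (-1.71 ± 0.27, adjusted p = 5.2e-04, and -1.38 with the offset). Ltbp2, a latent TGF beta binding protein, had 16.8 and 17.9 FPKM in 5C-C, 59.7 and 41.0 FPKM in 5C-E and 99.2 and 107 FPKM in 5C (-1.30 ± 0.19, adjusted p = 3.8e-04, and -1.13 with the offset). Of the 25 TGF beta pathway genes tested, 5 (20%) were called lower and 0 higher, against 7.34% and 6.33% over all genes, with the ligand Tgfb2 and the receptor Tgfbr1 among them. Ltbp2 was the one of the 25 also called lower with the offset, against 2.61% over all genes. The count was 3 lower without 5C-C2 and 9 under total counts, and 2 genes were called higher without 5C-C1 and 1 without 5C-E2. The list median was -0.40 in both fits.

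Of 30 P450 and phase I genes tested, 3 (10%) were called lower in 5C-C, each also with the offset, and 1 (3.33%) higher, against 7.34% and 6.33% over all genes. Cyp2e1, the ethanol-inducible P450 that activates CCl4, had 1.33 and 0.813 FPKM in 5C-C, 4.39 and 1.87 FPKM in 5C-E, 75.5 and 73.1 FPKM in 5C and 108 and 112 FPKM in DMSO. The difference between the removals (-1.34 ± 0.35, adjusted p = 0.00805, and -1.59 with the offset) was small beside the distance of both from 5C, and it was not called without 5C-C2 (adjusted p = 0.12) or without 5C-E1 (adjusted p = 0.27). Cyp1a2 and Cyp2j5 were called at -1.13 and -1.02, and neither kept its call without 5C-C1 or without 5C-E1. Cyp2a5, the gene called higher, rested on library 5C-C1, with 6.74 FPKM there and 1.01 FPKM in 5C-C2. No call was left among the 30 genes without 5C-E1. The Cyp2c and Cyp3a genes have near-identical copies, so their counts are uncertain. The list median was 0.00 (-0.15 with the offset). Against 5C, 17 of the 30 genes were called lower in 5C-C and 18 in 5C-E, where 10.5% and 1.31% of all genes were. Both removals were chosen for lower hepatic genes than 5C, so the counts against 5C test nothing.

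Of 21 conjugation enzymes, 3 were called higher (Gstp1 at 1.32, Nnmt at 1.22 and Sult1a1 at 1.17) and 1 lower (Ugt1a1), which is 14.3% and 4.76% against 6.33% and 7.34% over all genes. None of the 3 was called with the offset, and the list median was 0.18 (-0.04 with the offset). The count of higher genes was 1 under total counts. Ugt1a1, the bilirubin-conjugating transferase, had 0.981 and 0.621 FPKM in 5C-C, 3.43 and 2.63 FPKM in 5C-E and 7.61 and 7.48 FPKM in 5C (-1.70 ± 0.30, adjusted p = 9.1e-04, and -1.72 with the offset), and the call held with each of the 4 libraries left out. Genes of the Ugt1a locus share their last exons, so reads can be split between them. The bile acid uptake carrier Slco1b2 had 0.657 and 0.463 FPKM in 5C-C, 2.18 and 1.29 FPKM in 5C-E and 14.3 and 11.9 FPKM in 5C, and the steroid reductase Akr1d1, an enzyme of bile acid synthesis, 0.548 and 0.895 against 2.31 and 1.87 FPKM. Both were called without and with the offset, and both lost the call without 5C-E1 (Slco1b2 also without 5C-C2, Akr1d1 also without 5C-C1 or 5C-E2). Of the 23 genes of bile acid synthesis and transport, these and the export pump Abcb11 were the 3 called lower (13.04%, against 7.34% over all genes), and 0 were called higher. The count was 5 without 5C-C1, 1 without 5C-C2 or 5C-E2, and 0 without 5C-E1.

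The receptor Ppara, which controls fatty acid oxidation, had 0.801 and 0.377 FPKM in 5C-C and 1.38 and 1.55 FPKM in 5C-E (-1.10 ± 0.38, adjusted p = 0.0366, and -1.31 with the offset), and the call was lost without 5C-C2 (-0.66), without 5C-E1 and without 5C-E2. Genes known as its targets were counted beside it. Of 34 PPAR alpha target, fatty acid oxidation and ketogenesis genes, 6 (17.6%) were called higher and 0 lower in 5C-C, against 6.33% and 7.34% over all genes, with a median of 0.40 (0.29 with the offset). Of the 6, 2 were also called with the offset, against 2.11% over all genes. The count was 3 without 5C-E1 and 2 under total counts, and without 5C-C1 2 genes were called lower. Fabp1, the fatty acid binding protein of liver, had 5.56 and 8.69 FPKM in 5C-C, 2.78 and 1.77 FPKM in 5C-E and 42.2 and 28.0 FPKM in 5C (1.89 ± 0.32, adjusted p = 6.4e-04, and 1.32 with the offset). Fgf21, a fasting and stress hormone of liver, had 5.70 and 3.46 FPKM in 5C-C and 1.33 and 1.03 FPKM in 5C-E (2.18 ± 0.47, adjusted p = 0.00281, and 1.45 with the offset). Fabp1 lay below 5C in both removals. Fgf21 was at 1.20 in 5C-C against 5C (0.38 with the offset) and at -0.98 in 5C-E against 5C, which was not called.

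Sterol synthesis bears on the target of ETC-1002, which 5C-C received and 5C-E did not. Of 24 genes of cholesterol synthesis and uptake, 4 (16.7%) were called lower and 0 higher in 5C-C, against 7.34% and 6.33% over all genes, with a median of -0.28 (-0.18 with the offset). Of the 4, Idi1 alone was also called with the offset, a fit that called 1 gene of the list higher and 2 lower. Idi1, the isopentenyl diphosphate isomerase (GRCm39 chromosome 13, 8935537 to 8942487, plus strand, protein coding), had 4.51 and 2.35 FPKM in 5C-C, 15.5 and 15.3 FPKM in 5C-E, 14.8 and 14.1 FPKM in 5C and 7.93 and 8.21 FPKM in DMSO. Its log2 fold change was -1.95 ± 0.32 (adjusted p = 5.7e-04, and -1.96 with the offset), and the 5C-E libraries lay close to the 5C libraries (0.03 between those groups) while 5C-C lay below both. Sqle, the squalene epoxidase, was not called at -0.34 ± 0.18. When 5C-C1 was left out, 4 genes of the list were called higher and 5 lower, and when 5C-E2 was left out, 5 and 2, so the counts of this list rested on single libraries.

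The genes that encode the drug targets were named for their role. Acly had 24.6 and 15.2 FPKM in 5C-C, 43.1 and 50.1 FPKM in 5C-E, 29.2 and 30.4 FPKM in 5C and 35.0 and 32.3 FPKM in DMSO. The log2 fold change was -1.0006 ± 0.22 (adjusted p = 0.00269), at the very threshold, and it was -0.48 with the offset (adjusted p = 0.061) and -0.72 without 5C-C2. Slc27a2 had 4.51 and 2.69 FPKM in 5C-C and 6.51 and 4.08 FPKM in 5C-E, which overlapped (-0.34 ± 0.24), and it lay at 17.0 and 13.8 FPKM in 5C. Of 20 lipogenesis genes, Acly was the only one called (5% lower, against 7.34% over all genes), and Fasn was at -0.34 ± 0.18 (0.16 with the offset).

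Of the PKD genes, Prkd1 had 3.37 and 3.42 FPKM in 5C-C and 7.34 and 6.13 FPKM in 5C-E (-0.75 ± 0.29, adjusted p = 0.0591), and Prkd2 overlapped between the groups (-0.08 ± 0.21). Prkd3 had 3.82 and 2.91 FPKM in 5C-C against 9.05 and 8.38 FPKM in 5C-E (-1.14 ± 0.20, adjusted p = 8.6e-04, and -0.60 with the offset), and -0.98 without 5C-C2. With their class IIa HDAC and MEF2 partners, 19 genes were tested, of which 0 were called higher and 3 lower (Mef2c, Hdac9 and Prkd3; 15.8%, against 7.34% over all genes), and 0 with the offset. The count was 6 lower without 5C-C1, 2 without 5C-C2 and 7 under total counts. Mef2c, a transcription factor released by nuclear export of class IIa HDACs, had 0.345 and 0.368 FPKM in 5C-C and 1.57 and 1.13 FPKM in 5C-E (-1.68 ± 0.25, adjusted p = 3.6e-04, and -0.97 with the offset).

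Of the AMPK subunits, the catalytic Prkaa1 was at -0.86 ± 0.23 and Prkaa2 at -0.37 ± 0.33, which became 0.44 with the offset. The regulatory Prkab2 and Prkag1 were called in opposite directions, at -1.01 ± 0.21 and 1.17 ± 0.27, and neither with the offset (-0.16 and 0.70). Prkag1 was at 0.65 without 5C-C2, and Prkab2 at -0.87 without 5C-E1. Prkab1 was at 0.19 ± 0.19 and turned to -0.39 with the offset, Prkag2 was at -0.43 ± 0.18, and Prkag3, which is known mainly from muscle, stayed at or under 0.134 FPKM in the 4 libraries. No target gene of either compound was thus called in both fits.

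**Figure D4:**
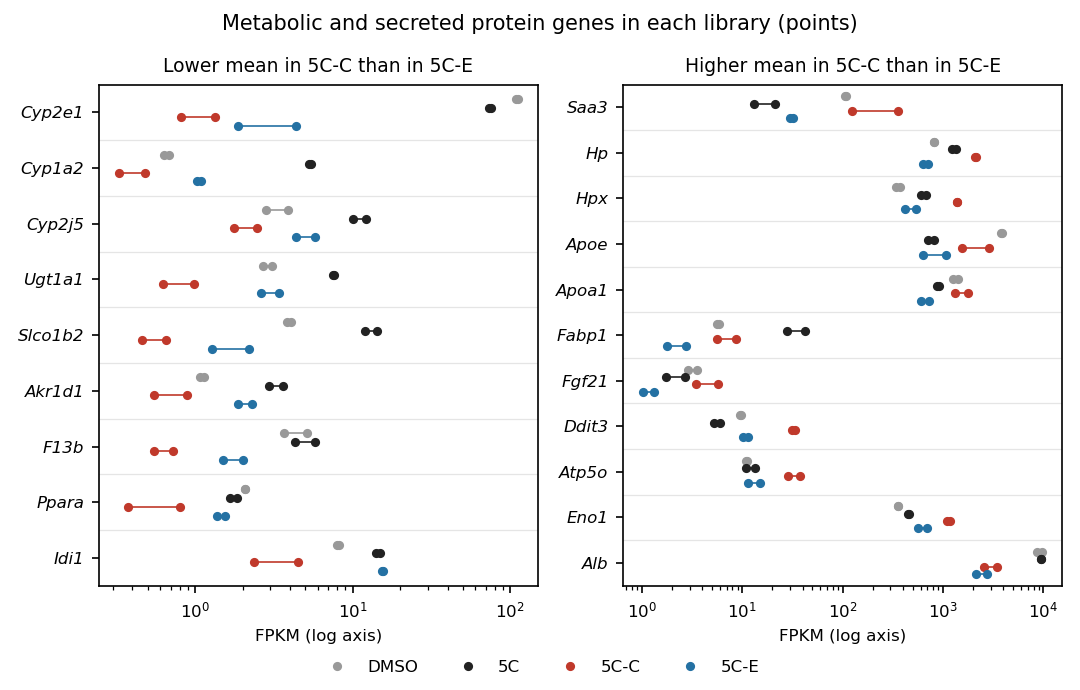
FPKM (log axis) of metabolic and secreted protein genes with a lower mean (left) or a higher mean (right) in 5C-C than in 5C-E, each point a library and each line joining the 2 libraries of a group, in DMSO (grey), 5C (black), 5C-C (red) and 5C-E (blue). Cyp2e1 lies at 75.5 and 73.1 FPKM in 5C and at most at 4.39 FPKM in both removals, whereas Hp is above 5C in 5C-C and below it in 5C-E, and Alb is shown although it was not called.

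Of 19 genes of the acute phase, 6 (31.6%) were called higher and 2 (10.5%) lower, against 6.33% and 7.34% over all genes, and 4 and 1 of them with the offset, against 2.11% and 2.61%. The median was 0.68 (0.39 with the offset). Haptoglobin (Hp), which binds free haemoglobin, had 2073 and 2152 FPKM in 5C-C, 627 and 703 FPKM in 5C-E and 1229 and 1350 FPKM in 5C (1.90 ± 0.17, adjusted p = 2.6e-05, and 1.16 with the offset). Hemopexin (Hpx), which binds haem, had 1392 and 1368 FPKM in 5C-C against 421 and 534 FPKM in 5C-E (1.77 ± 0.20, adjusted p = 1.7e-04, and 1.13 with the offset). Both had narrow spreads within groups. The groups stood on either side of 5C for Hp, which was called lower in 5C-E than in 5C at -1.03 (adjusted p = 0.0014) and lay at 0.88 in 5C-C against 5C.

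The metalloreductase Steap4 went the other way, at -1.37 ± 0.23 (-1.36 with the offset), and Hamp, which encodes the iron hormone hepcidin, overlapped between the groups with 26.8 and 33.4 FPKM in 5C-C and 32.9 and 19.4 FPKM in 5C-E. Of 40 complement, coagulation and other plasma protein genes, 6 (15%) were called higher and 1 (2.5%) lower, against 6.33% and 7.34% over all genes, but with the offset only Hp stayed higher and only F13b, a subunit of coagulation factor XIII, stayed lower. Under total counts 2 were called higher and 3 lower, and without 5C-E1 8 and 0. F13b was not called without 5C-C1 or without 5C-E1. Apolipoprotein genes are short, with a median transcript length of 1941 bases, and their median of 0.74 fell to 0.13 with the offset. Of 17, 5 (29.4%) were called higher and 0 lower, against 6.33% over all genes, and Apoe alone remained with the offset, at 1558 and 2888 FPKM in 5C-C and 629 and 1064 FPKM in 5C-E (1.64 ± 0.32, adjusted p = 0.00161, and 1.22 with the offset). Apoe is made by macrophages as well as hepatocytes, and it moved with C1qa and C1qb here, and the part of macrophages in it was not tested. Of 20 hepatocyte identity markers, Hpx and Apoa1 were called higher (10%, against 6.33% over all genes) and 0 lower, with a median of 0.42 that came to 0.01 with the offset.

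Nuclear genes of the respiratory chain had the highest median of the 33 gene lists without the offset, 0.91, and 0.58 with it. All 35 were tested, 15 (42.9%) were called higher in 5C-C and 0 lower, and 6 remained with the offset, against 6.33% and 2.11% over all genes. The count was 4 without 5C-C2 and 6 under total counts. Atp5o, a stalk subunit of ATP synthase, had 28.3 and 38.0 FPKM in 5C-C, 15.0 and 11.3 FPKM in 5C-E and 10.9 and 13.5 FPKM in 5C (1.57 ± 0.25, adjusted p = 5.5e-04, and 1.24 with the offset), and the complex I subunit Ndufb9 was at 1.35 ± 0.28 (1.51 with the offset). Of 12 mitochondrially encoded genes tested, 0 were called by edgeR or DESeq2 in either direction and 1 by limma (lower), while 1 had an unadjusted edgeR p under 0.05, with a median of 0.14 (-0.17 with the offset). Without 5C-C1, 1 was called lower. Cytosolic ribosomal protein genes, a list chosen after its values were seen, showed a like pattern, with 61 of 80 called higher and 0 lower, 29 of them with the offset, and a median of 1.34 (0.78 with the offset). They are short, abundant and rich in processed pseudogenes, so their values are uncertain.

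Stress genes differed in a single member that both fits called. Ddit3, which encodes the stress transcription factor CHOP, had 33.4 and 31.7 FPKM in 5C-C, 10.2 and 11.5 FPKM in 5C-E and 6.07 and 5.26 FPKM in 5C (1.82 ± 0.24, adjusted p = 2.4e-04, and 2.06 with the offset), and its call held with each library left out. Of 27 unfolded protein and ATF4 stress genes, 5 (18.5%) were called higher and 1 (3.70%) lower, against 6.33% and 7.34% over all genes, and Ddit3 was the only one also called with the offset. The count of higher genes was 1 without 5C-E1, 3 without 5C-C1 and 1 under total counts. The glycolytic enolase Eno1 had 1094 and 1188 FPKM in 5C-C against 566 and 698 FPKM in 5C-E (1.09 ± 0.20; 1.16 with the offset). It fell short of the fold threshold without 5C-E1, at 0.94, and without 5C-C2. Gapdh, also called, is uncertain because of its many pseudogenes.

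Among the other lists, interferon stimulated genes had 4 called higher and 1 lower of 29, with a median of 0.48 (0.22 with the offset). None of the 4 was also called with the offset while the lower one, Oas3, was, and under total counts 1 was called higher and 2 lower. Oas3 did not keep its call without 5C-C2 (-1.14) or without 5C-E1 (-0.84). Of 23 antioxidant genes, 4 were called higher and 0 lower. Of 36 urea cycle and amino acid genes, 3 (8.33%) were called higher and 2 (5.56%) lower, against 6.33% and 7.34% over all genes. Of 17 gluconeogenesis and glycogen genes, 2 (11.8%) were called higher and 1 (5.88%) lower. Of 22 hepatocyte transcription factors and nuclear receptors, 2 were called higher and 3 lower, and Foxa2, a pioneer factor of liver, overlapped between the groups at 7.06 and 4.40 FPKM in 5C-C and 4.29 and 6.10 FPKM in 5C-E. The shares called higher were 13.8% of the interferon list and 17.4% of the antioxidant list, against 6.33% over all genes, and without 5C-C2 the counts were 2 and 2 (for interferon genes also 2 without 5C-E2). Of the transcription factors 13.6% were called lower, against 7.34% over all genes, and 0 without 5C-C2 or 1 without 5C-E1. With 1 library left out, the counts of the urea cycle list rose or fell by library, and those of the gluconeogenesis list stayed or fell. The medians then ran from -0.073 to 0.15 and from 0.14 to 0.40. The medians of the urea cycle and gluconeogenesis lists changed sign with the offset.

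**Figure D5:**
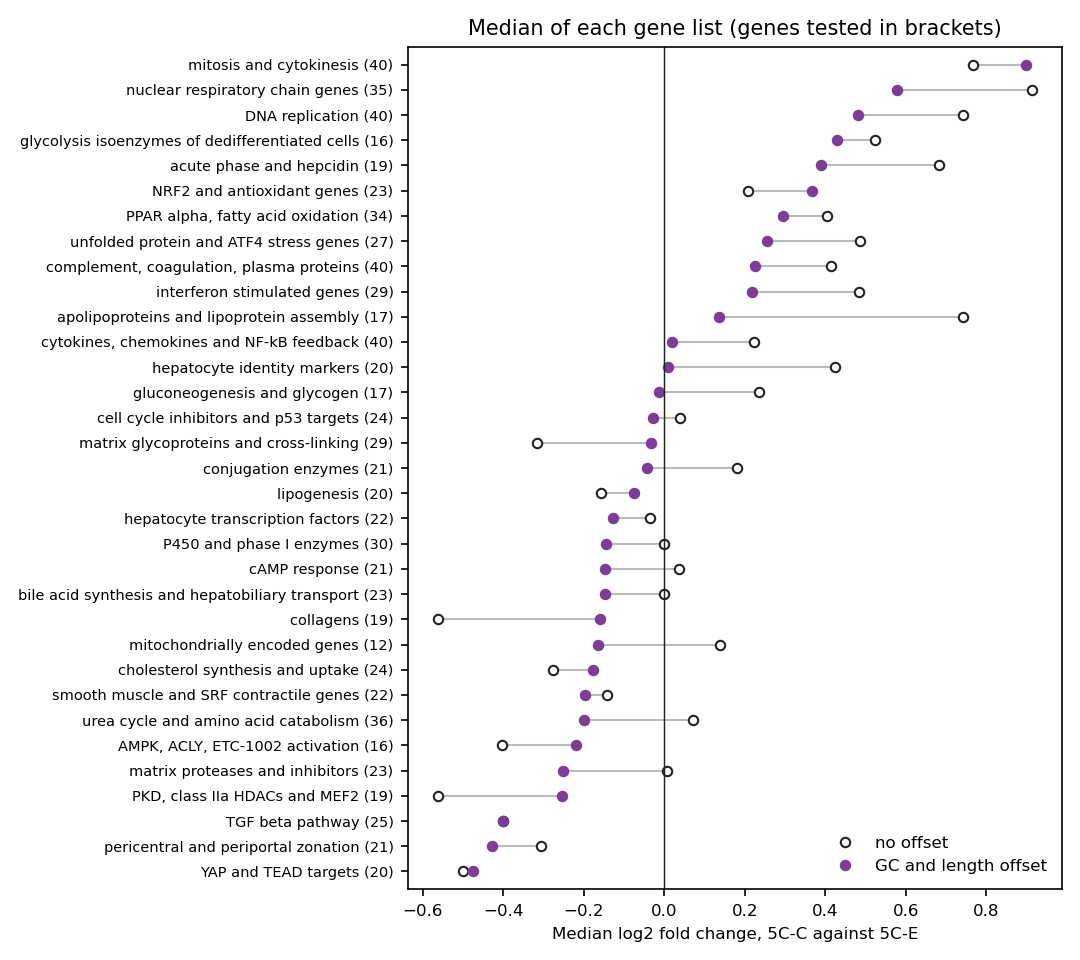
Median log2 fold change of 5C-C against 5C-E for each of 33 gene lists, with the number of genes tested in brackets, without the offset (open circles) and with the offset (filled circles). The mitosis list has the highest median with the offset (0.90), and the YAP and TEAD list the lowest (-0.48).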

How the data were processed

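RNA-seq of 13 libraries of mouse dHeps cultures in 7 groups was used, of which 2 libraries of 5C-C and 2 of 5C-E were compared. The authors deposited read counts per gene and FPKM values. Per the labels, the submitters' processing notes name featureCounts, Subread, DESeq2 and the build GRCm39, while the aligner, annotation release and strand setting are not given in the sources used here, so overlapping and antisense genes are uncertain. The tables differ in 1 gene ID and were joined by symbol, and 0 columns of per-sample values were left unused.

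Counts of 27141 genes were filtered (filterByExpr, minimum count 10) and scaled by TMM, and 19884 genes were tested with the quasi-likelihood test of edgeR 4.0.16 in R 4.3.3 over all 13 libraries, with 6 residual degrees of freedom and Benjamini-Hochberg adjustment. The study's methods name DESeq, in whose place edgeR was used. A gene was called at an adjusted p under 0.05 and a log2 fold change beyond 1. A second fit added an offset per gene and library from splines (5 degrees of freedom) of GC content and of the longest transcript's length in GENCODE M39, learned on genes over 1 CPM. The alternatives were DESeq2 1.42.0, limma 3.58.1 on log2(FPKM + 1) and log2(FPKM + 0.1), other scalings and filters, a replicate block and each library left out. Folds against counts of 0 used a floor of 3 counts per library, which covers counting error only since the reads carry no molecular identifiers. The statistics were run on simulated counts without a GC or length trend between 5C-C and 5C-E, so that run does not bear on this trend. The members and gene lists were chosen with earlier results of these data known. Named genes were the 12 with the greatest fold in each direction among genes called without and with the offset at a mean of at least 10 FPKM in the higher group, without overlap and with no predicted-model name, up to 4 called genes of each list, and a set of marker and target genes. Genes named beyond these, such as uncalled list members and further called mitosis genes, were chosen after their values were seen. Promoter windows came from RefSeq (GRCm38.p6, 250 bases before to 50 after the start site), whose coordinates were not mixed with those of GRCm39. Some single-gene results are not reported here.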

Additional observations from a re-analysis of the deposited data

How the results depend on the processing

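The main counts were 2718 genes called, 1258 higher and 1460 lower in 5C-C. They stayed within 1.5 times of these under RLE scaling, DESeq2, other filters, fits on 4 or 6 libraries and an unadjusted p under 0.05. With total counts only, 620 were higher and 2404 lower. With limma on log2(FPKM + 1) the total was 1445, with 463 higher, and on log2(FPKM + 0.1) 701 were higher and 2320 lower. The offset gave 1340 (693 and 647), and a log2 fold change beyond 0.5 gave 5578 (2629 and 2949). Calls without and with the offset, an alternative chosen after seeing the data, numbered 939 (420 and 519). Leaving out 1 library gave 1561 to 3856 genes, 577 to 1773 higher and 984 to 2083 lower, with the lowest totals without 5C-C2. The causes of these shifts were not tested.

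With the replicate block 2745 genes were called (1247 and 1498), and with block and offset 1355 (678 and 677). Nothing in the labels pairs the samples by column number. The difference between both libraries of 5C-C and that of 5C-E correlated at -0.00 across genes, which cannot decide whether equal numbers share a preparation. Of 152 named genes, 1 lost its call under the block.

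The genes that changed sign were not called. Hnf4a was at -0.14 with total counts only and with limma on log2(FPKM + 1), at -0.15 on log2(FPKM + 0.1) and at -0.087 to 0.24 with 1 library left out. Foxa2 was at -0.020 with the offset and -0.033 with block and offset. Prkab1 was at -0.044 with total counts only, -0.043 and -0.045 with limma on log2(FPKM + 1) and log2(FPKM + 0.1), and -0.39 in both offset fits. Prkaa2 was at 0.44 in both offset fits. Leaving out 1 library gave -0.29 to 0.16 for Acta2, -0.28 to 0.088 for Prkd2, -0.0051 to 1.39 for Prkag3 and -0.72 to 0.034 for Slc27a2. Of 70 named genes called without and with the offset, 46 were called with each of the 4 libraries left out. Genes under about 1 FPKM rest on few reads and are the least precise.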
